A study of Homo sapiens with 12 samples.

Results

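The transcripts of 8 genes were followed in MV4-11 cells, a human acute myeloid leukemia (AML) line, after 24 h with mitoxantrone, gilteritinib or both. They were the topoisomerases TOP1, TOP2A, TOP2B, TOP3A, TOP3B and TOP1MT and the tyrosyl-DNA phosphodiesterases TDP1 and TDP2. The 8 genes were matched by symbol to human Ensembl identifiers among the 43876 gene rows of the expression table, and all 8 were found. RNA-seq libraries fell into 4 groups of 3, numbered 1 to 3 in each: 20 nM mitoxantrone (Mitoxantrone), 25 nM gilteritinib (Gilteritinib), 20 nM mitoxantrone with 20 nM gilteritinib (Com) and the solvent dimethyl sulfoxide (DMSO). Gilteritinib alone was thus given at a higher dose than in Com. The labels name mitoxantrone, whereas the study's text describes the RNA-seq cells as given mitoxantrone-liposome, so the form used is not settled. The labels call the genotype wild-type, whereas the study describes MV4-11 as a line with the FLT3 internal tandem duplication (FLT3-ITD). One cell line was used, and nothing says whether libraries came from separate cultures, so p-values measure only the spread between these libraries, which may be technical.

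Topoisomerases relax and untangle DNA by cutting it and rejoining it while the enzyme stays bound to the cut end through a tyrosine. Type IIA enzymes (TOP2A and TOP2B) cut both strands, whereas type I enzymes (TOP1, TOP1MT, TOP3A and TOP3B) cut one strand, TOP3B of RNA as well. Mitoxantrone is a topoisomerase II poison: it holds TOP2A and TOP2B on the cut DNA, which leaves protein adducts on broken ends. TDP2 removes the tyrosine from the 5′ end left by a type II enzyme, and TDP1 from the 3′ end left by TOP1. TOP2A is made mainly from S phase to mitosis in dividing cells, while TOP2B is also present in resting cells. Gilteritinib inhibits the FLT3 kinase.

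Levels are FPKM, the number of fragments scaled for transcript length and library depth, as deposited. Depth was recovered from the steps between low FPKM values and ran from 31725015 to 41330654 fragments per library. FLT3, the kinase that gilteritinib inhibits, had an FPKM of 132 to 171 across the libraries, and all 7 leukemia line markers were detected, with MPO low at 1.55 to 2.66. Of the markers of other cell types, the 5 reported here (CD3E, EPCAM, HBB, COL1A1 and ALB) summed to 0.0498 to 2.89 in any library. The sum of these 5 was 1.09 to 2.89 in Mitoxantrone and 0.0797 to 1.39 in DMSO. EPCAM and ALB were at 0 in every Mitoxantrone library, and HBB, a hemoglobin chain, had the highest mean of the 5 in each group, with 1.87 FPKM in Mitoxantrone and 0.835 in DMSO; the part of these markers in the results was not tested. Libraries separated by replicate number: 38.3% of the 18574 genes tested differed between replicate 1 and replicates 2 and 3 at an adjusted p under 0.05 (limma). Fold changes of TOP2A and TOP2B that rest on replicate 1 are therefore also given without it. In bulk RNA, fewer cells of a kind and less RNA per cell cannot be told apart.

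TOP2A was the most abundant of the 8 transcripts, at 108.9 to 189.4 FPKM with a median of 141.2, higher than 97.6% of protein-coding genes tested. The gene lies on chromosome 17 at 40388516 to 40417950, minus strand, in GRCh38, with no other annotated gene over its exons. In DMSO its FPKM was 161.3, 138.8 and 144.3 in replicates 1, 2 and 3. In Mitoxantrone it was 108.9, 119.2 and 125.1, and every Mitoxantrone library lay below every DMSO library. In Gilteritinib it was 189.4, 144.2 and 145.3, so that only replicate 1 stood above the DMSO range. In Com it was 132.1, 139.3 and 143.1, of which replicates 2 and 3 lay inside the DMSO range and replicate 1 below it.

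TOP2B followed at 92.5 to 120.8 FPKM, higher than 96.2% of protein-coding genes tested. It lies on chromosome 3 at 25597905 to 25664907, minus strand. In DMSO its FPKM was 119.6, 100.8 and 101.7. In Mitoxantrone it was 94.5, 95.2 and 100.7, just below the DMSO range. In Gilteritinib the values were 120.8, 92.5 and 95.7, and in Com 114.5, 97.9 and 101.2, both overlapping DMSO. Replicate 1 was the highest library in every group except Mitoxantrone, where it was the lowest.

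TOP1, the main nuclear type IB enzyme and the target of camptothecins, was lower than both type II enzymes and the steadiest of the 6 members tested, at 21.0 to 24.2 FPKM with a coefficient of variation of 5.06%. Its FPKM was 23.6, 21.3 and 22.0 in Mitoxantrone. It was 22.5, 22.8 and 21.7 in Gilteritinib, all below DMSO. Com had 21.0, 24.0 and 24.2. DMSO had 24.2, 23.1 and 24.0, and apart from Gilteritinib the drug groups overlapped it.

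TOP1MT, the nuclear-encoded type IB enzyme of mitochondria, stood at 40.4 to 51.8 FPKM, about 1.92 times TOP1 in DMSO (SD 0.112, n = 3). That ratio depends on the gene lengths used for FPKM. The lengths implied by the values were 2029 nt for TOP1MT and 8092 nt for TOP1, beside GENCODE 29 exon lengths of 6441 and 3738. In recovered fragments TOP1 was the higher, with 5474 to 7688 per library beside 2974 to 4238 for TOP1MT. The FPKM of TOP1MT was 51.8, 46.2 and 46.9 in Mitoxantrone. It was 40.4, 47.2 and 48.5 in Gilteritinib and 43.3, 48.6 and 45.6 in Com. DMSO had 43.4, 45.5 and 48.0, and all 3 drug groups overlapped it. It was the only one of the 6 members tested with a mean above DMSO in Mitoxantrone.

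TDP1, which also clears other blocked 3′ ends, stood at 19.6 to 24.0 FPKM. It lies on chromosome 14 at 89954939 to 90044768, plus strand. DMSO had 24.0, 22.3 and 22.6. In Mitoxantrone the FPKM was 19.7, 19.7 and 20.1, with the narrowest spread of any group, and every library was below DMSO. Gilteritinib had 22.9, 21.7 and 22.0, which overlapped DMSO. Com had 19.6, 21.5 and 22.1, also below every DMSO library, although replicates 2 and 3 were less than 1 FPKM away.

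TDP2 stood at 28.0 to 36.0 FPKM and was 1.43 times TDP1 in DMSO (SD 0.0708, n = 3). DMSO had 36.0, 31.6 and 30.8. In Mitoxantrone the FPKM was 31.9, 28.0 and 28.5. Each Mitoxantrone library was below the DMSO library of its number, by -11.5%, -11.3% and -7.70%, but the groups overlapped through replicate 1. Gilteritinib had 35.8, 30.5 and 32.9 and Com 33.1, 33.1 and 31.7, both overlapping DMSO.

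The 2 type IA enzymes were detected in every library but were the lowest of the 8 members. TOP3A, which unlinks recombination intermediates together with BLM and RMI1, had an FPKM of 0.696, 0.368 and 0.319 in Mitoxantrone and 0.673, 0.319 and 0.336 in DMSO. Gilteritinib had 0.338, 0.371 and 0.316, and Com 0.595, 0.311 and 0.333. TOP3B, which works on DNA and RNA with its partner TDRD3, had 0.774, 0.530 and 0.282 in Mitoxantrone and 0.593, 0.379 and 0.364 in DMSO. Gilteritinib had 0.477, 0.542 and 0.324, and Com 0.642, 0.415 and 0.374. Replicate 1 was the highest in each group except Gilteritinib, and the groups overlapped for both genes. These levels rested on 70 to 185 recovered fragments for TOP3A and 47 to 130 for TOP3B, against 21531 to 44586 for TOP2A. Of TOP3B's exons, 90.7% lie under AC245452.1 on the opposite strand, and as no strand is stated for the libraries the reads of the pair cannot be told apart. Neither gene reached 1 FPKM in any library, and only genes that did so in 3 or more were tested, so 6 of the 8 members were tested.

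By mean FPKM the order was TOP2A (140.9), TOP2B (102.9), TOP1MT (46.3), TDP2 (32.0), TOP1 (22.9), TDP1 (21.5), TOP3B (0.475) and TOP3A (0.414). This order depends on the gene lengths used for FPKM, as given above for TOP1MT and TOP1. The libraries of TOP2A and TOP2B overlapped between 108.9 and 120.8, although within each library TOP2A was the higher. TOP1 and TDP1 overlapped, as did TOP3B and TOP3A. The other neighbours in the order did not overlap over the 12 libraries. SPO11, the meiotic relative of type II enzymes, was at 0 to 0.028 FPKM.

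The first question was whether the type II poison by itself changed the transcripts of its targets and of the enzymes that clear them. With Mitoxantrone, TOP2A was lower than DMSO by a log2 fold change of -0.33 (SE 0.11; 95% interval -0.57 to -0.09), a difference of -20.4% on the FPKM + 1 scale. Replicate by replicate the FPKM differed by -32.5%, -14.2% and -13.3%. TDP1 was lower by a log2 fold change of -0.20 (SE 0.06; 95% interval -0.34 to -0.06), or -13.0%, with -17.7%, -11.7% and -11.2% by replicate. TOP2B differed by -0.14 (SE 0.11; 95% interval -0.39 to 0.10), an interval that holds 0 and also the estimate for TOP2A. By replicate TOP2B differed by -21.0%, -5.59% and -0.996%, so replicate 1 carried most of the estimate. The other 3 members tested lay between -0.15 (TDP2) and 0.08 (TOP1MT).

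By limma over all genes tested, 0 of 6 members passed an adjusted p of 0.05 with Mitoxantrone against DMSO, where 0% of all genes passed (adjusted p 0.51 for both TOP2A and TDP1). At an unadjusted p under 0.05, 2 of 6 members were counted in limma, TOP2A and TDP1, both lower, beside 7.9% of all genes in either direction and 2.94% lower. When replicate number was added as a block, TDP2 also had an unadjusted p under 0.05 (limma, adjusted p = 0.24), giving 3 of 6 beside 6.46% of all genes lower. The limma voom model on the recovered fragments also called 0 of 6, with 2 at an unadjusted p under 0.05. Libraries of TOP2A, TOP2B and TDP1 did not overlap between the groups, 3 of 6 members beside 5.9% of all genes lower.

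In replicates 2 and 3 alone, a subset chosen after the libraries had been seen to separate, TOP2A and TDP1 did pass in Mitoxantrone against DMSO. There limma gave a log2 fold change of -0.21 for TOP2A (adjusted p = 0.031) and -0.17 for TDP1 (adjusted p = 0.043), 2 of 6 members beside 6.41% of all genes. TOP2B had -0.05 there, against -0.14 over all 3 replicates, and did not pass (adjusted p = 0.56). The differences in these libraries were smaller than over all 3, and the spread was smaller still.

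With Gilteritinib alone, TOP2A had a log2 fold change against DMSO of 0.10 (SE 0.11; 95% interval -0.14 to 0.34) and TOP2B of -0.07 (SE 0.11; 95% interval -0.31 to 0.18). The TOP2A estimate rested on replicate 1, which was 17.4% above DMSO, while replicates 2 and 3 were 3.88% and 0.672% above; without Gilteritinib replicate 1 it was -0.03. The TOP2B estimate was 0.01 without either Gilteritinib replicate 2 or DMSO replicate 1. Of the 6 members, 0 passed at either threshold in limma, beside 0% of all genes at the adjusted and 1.86% at the unadjusted p under 0.05, and voom also gave 0 at both. In replicates 2 and 3 alone TOP2A had 0.03 and TOP2B -0.10 (limma, adjusted p = 0.83 and 0.39); TOP2B was the 1 of 6 at an unadjusted p under 0.05 there, beside 11.7% of all genes. TOP1 alone did not overlap DMSO, 1 of 6 beside 4.4% of all genes lower.

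In Com, TOP2A had a log2 fold change against DMSO of -0.10 (SE 0.11; 95% interval -0.34 to 0.14) and TOP2B of -0.04 (SE 0.11; 95% interval -0.28 to 0.21). By replicate TOP2A differed by -18.1%, 0.379% and -0.816%, so replicate 1 carried the estimate. In replicates 2 and 3 alone TOP2A had -0.0032 and TOP2B -0.02. The sign for TOP2B turned to 0.01 without Com replicate 2 and to 0.04 without DMSO replicate 1. By limma 0 of 6 members passed, beside 0.00538% of all genes at the adjusted p and 1.67% at the unadjusted p under 0.05, and voom gave 0 at both. TDP1 was the 1 member of 6 whose libraries did not overlap DMSO, beside 3.16% of all genes lower.

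**Figure D1:**
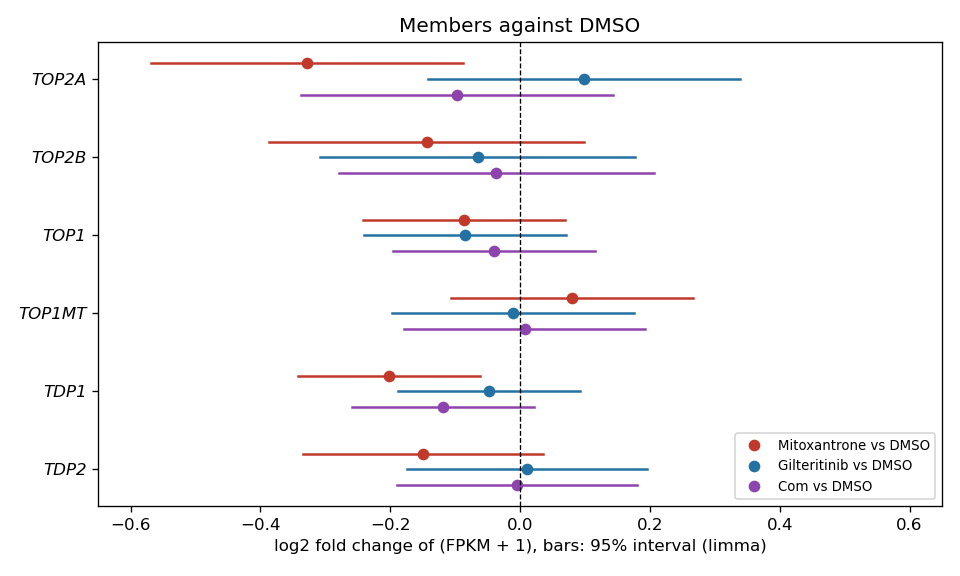
Log2 fold change of FPKM + 1 against DMSO (horizontal axis) for the 6 members tested (vertical axis), with 95% intervals from limma as bars and 1 color per drug group. The intervals of TOP2A and TDP1 with Mitoxantrone lie below 0; all others hold 0.

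A further question was whether Com differed from each single drug. TOP2A, named here after its values were seen, was above Mitoxantrone in Com by a log2 fold change of 0.23 (SE 0.11; 95% interval -0.01 to 0.47) and by 21.3%, 16.9% and 14.4% in replicates 1, 2 and 3, with no overlap of the libraries (1 of 6 members, beside 3.22% of all genes higher). By limma 0 of 6 members passed, beside 0% of all genes adjusted and 5.53% at an unadjusted p under 0.05 (adjusted p 0.89 for TOP2A). The unadjusted count became 1 without Mitoxantrone replicate 1 or Gilteritinib replicate 1, with no share of all genes given for these fits. With the replicate block 1 member, TDP2, had an unadjusted p under 0.05 (limma, adjusted p = 0.36), beside 12.2% of all genes. In replicates 2 and 3 alone TOP2A passed at an adjusted p of 0.034 (limma; log2 fold change 0.21), 1 of 6 members beside 6.13% of all genes.

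Against Gilteritinib, TOP2A in Com had a log2 fold change of -0.20 (SE 0.11; 95% interval -0.44 to 0.04), with -30.3%, -3.37% and -1.48% by replicate. It was -0.07 without Gilteritinib replicate 1, and -0.04 in replicates 2 and 3 alone, where 1 of 6 members (TOP1) had an unadjusted p under 0.05 beside 6.46% of all genes (limma). TOP2A was the 1 member of 6 without overlap, beside 2.33% of all genes lower. Of the members, 0 passed in limma at either threshold, beside 0% and 1.63% of all genes, and 0 by voom.

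The widest gap among the members lay between the single drugs. TOP2A in Gilteritinib exceeded Mitoxantrone by a log2 fold change of 0.43 (SE 0.11; 95% interval 0.19 to 0.67) and by 73.9%, 21.0% and 16.1% in replicates 1, 2 and 3. TDP1 exceeded it by 0.15 (SE 0.06; 95% interval 0.01 to 0.29). By limma 0 of 6 members passed the adjusted threshold, beside 0% of all genes. At an unadjusted p under 0.05 there were 2 of 6, TOP2A (adjusted p 0.27) and TDP1 (adjusted p 0.48), beside 9.52% of all genes in either direction and 2.96% higher, and TDP2 made 3 with the replicate block (limma, adjusted p = 0.18), beside 5.45% higher. Their libraries did not overlap between the groups either, 2 of 6 beside 5.25% of all genes higher. TOP2A passed with voom and the block (adjusted p = 0.026, 1 of 6 members beside 3.72% of all genes) and in replicates 2 and 3 alone (limma, adjusted p = 0.021; log2 fold change 0.24; 1 of 6 members beside 6.63%). Without Gilteritinib replicate 1 the log2 fold change was 0.30, and TDP1 was no longer under an unadjusted 0.05; the count was also 1 without Mitoxantrone replicate 2, Mitoxantrone replicate 3 or Gilteritinib replicate 3.

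Whether the effect of mitoxantrone differed in the presence of gilteritinib was tested as the interaction, with the limit that gilteritinib was at 20 nM in Com and 25 nM alone. The interaction on the log2 scale was 0.13 for TOP2A (SE 0.15; 95% interval -0.21 to 0.47) and 0.17 for TOP2B (SE 0.16; 95% interval -0.17 to 0.52). By limma 0 of 6 members passed, beside 0% of all genes adjusted and 2.91% at an unadjusted p under 0.05, and 0 by voom. In replicates 2 and 3 alone 0 passed adjustment (limma, adjusted p 0.18 for TOP2A and 0.34 for TOP2B), while TOP1, TDP1, TOP2A and TDP2, 4 of 6, had an unadjusted p under 0.05 beside 16.1% of all genes. Without Gilteritinib replicate 1 both TOP2A (0.26) and TOP2B (0.29) had an unadjusted p under 0.05. The share of all genes at that p without this library is not given, so the count is not read as a result about the members. By the interaction over all 12 libraries, the TOP2A difference with mitoxantrone was not shown to depend on gilteritinib.

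The ratio of TOP2A to TOP2B within a library does not depend on how libraries were scaled. It was 1.38 ± 0.0353 in DMSO, 1.22 ± 0.0552 in Mitoxantrone, 1.55 ± 0.0265 in Gilteritinib and 1.33 ± 0.154 in Com (mean ± SD, n = 3). TOP2A made up 58.0% of the FPKM of both type II enzymes in DMSO, 54.8% in Mitoxantrone, 60.8% in Gilteritinib and 57.0% in Com. The log2 ratio in Mitoxantrone was lower than DMSO by -0.23, -0.14 and -0.19 in replicates 1, 2 and 3. In Gilteritinib it was higher by 0.22, 0.18 and 0.10. All libraries of each single drug lay outside the DMSO range, Mitoxantrone below and Gilteritinib above it.

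The mean differences were -0.19 for Mitoxantrone and 0.16 for Gilteritinib, each with p = 0.1 in an exact two-sided permutation test (0.15 adjusted over 3 comparisons). With 3 libraries against 3, 0.1 is the smallest p the design allows, so it cannot pass 0.05. Com differed by -0.06 (exact permutation p = 0.9); its replicate 1 differed by -0.23 and its replicates 2 and 3 by 0.05 and -0.0047, and the mean was 0.04 without Com replicate 1.

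**Figure D2:**
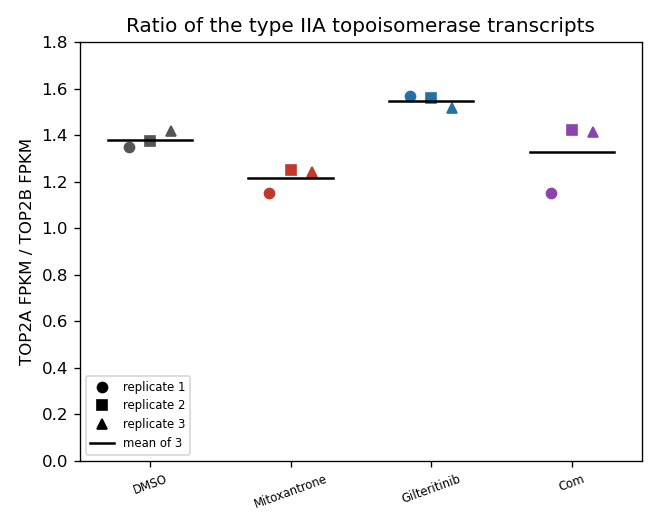
TOP2A FPKM divided by TOP2B FPKM (vertical axis, from 0) in the 4 groups (horizontal axis), with 1 symbol per library and the mean of 3 as a line. Mitoxantrone lies below and Gilteritinib above the DMSO libraries, and Com is split between replicate 1 at 1.15 and the other two.

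The genes whose pattern was most like TOP2A over the 12 libraries were looked up among 9381 genes with a mean of at least 5 FPKM, by Pearson r of log2(FPKM + 1). They were PBK (r = 0.990), a mitotic kinase, NCAPG (0.989) and SMC2 (0.979), subunits of condensin, CDCA2 (0.975), a chromosome-bound phosphatase regulator, and KIF4A (0.975), a chromosome-bound kinesin. These libraries share treatment groups and replicate numbers, so r is a description over 12 points. PBK, for example, was at 44.9 FPKM in DMSO, 34.7 in Mitoxantrone, 48.1 in Gilteritinib and 41.0 in Com. Condensin works with TOP2A on mitotic chromosomes. With replicate numbers centered, r stayed between 0.974 and 0.995 for the 5 genes. Not all mitotic genes ran this closely with TOP2A: over the 15 genes of a G2 and mitosis list r had a median of 0.878. It went from 0.973 for CCNB2 down to 0.321 for MKI67, 0.306 for PRC1 and 0.151 for NUSAP1. Centered by replicate number, r was 0.730 for MKI67, 0.352 for PRC1 and 0.161 for NUSAP1. PRC1 and NUSAP1 were low, with means of 1.11 and 1.12 FPKM. Other genes on the same strand overlap 57.6% of the exon length of PRC1 and 62.2% of that of NUSAP1.

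The 5 genes most like TOP2B were different ones: TM9SF3 (r = 0.970), ZBTB10 (0.969), STT3B (0.967), DCP2 (0.966) and ZDHHC20 (0.965). STT3B is a catalytic subunit of oligosaccharyltransferase and DCP2 removes the mRNA cap. Between TOP2A and TOP2B themselves r was 0.653, lower than between TOP2A and TDP1 (0.831) and similar to TOP2A and TDP2 (0.687). TOP1MT ran opposite to TOP2A, with r = -0.720.

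**Figure D3:**
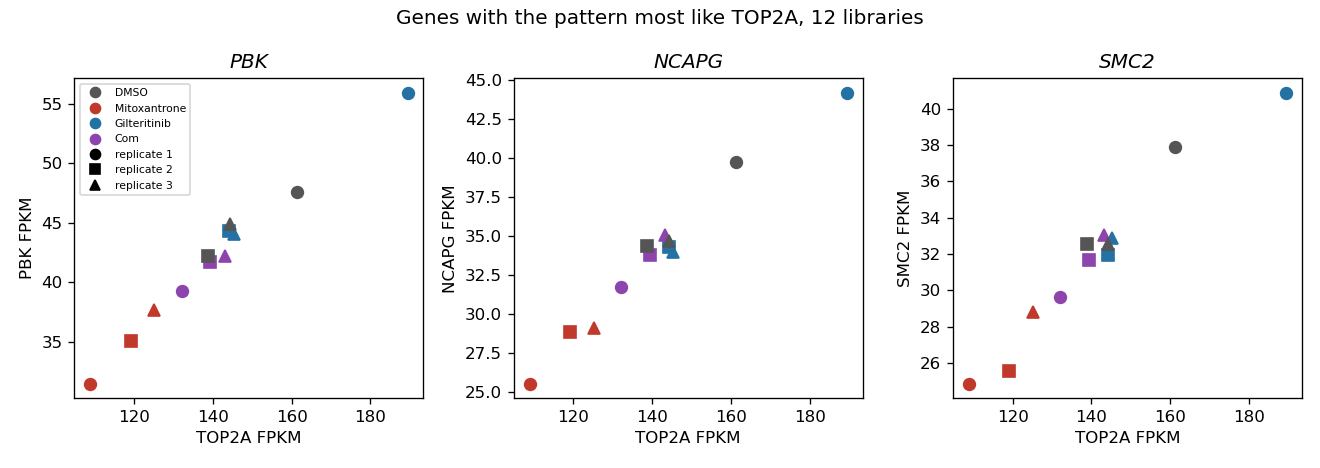
FPKM of PBK, NCAPG and SMC2 (vertical axes) against TOP2A FPKM (horizontal axes, not from 0) in the 12 libraries, colored by group and shaped by replicate number. The 3 Mitoxantrone libraries sit at the lower left and Gilteritinib replicate 1 at the upper right, with r of 0.979 to 0.990.

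As the genes with the highest r act in mitosis, the promoter of TOP2A and that of TOP2B are shown. Promoters of many G2 and mitosis genes are known to carry CCAAT boxes, bound by NF-Y, and a cell cycle genes homology region (CHR) of the form TTTGAA. The 250 bases before the RefSeq start (GRCh38.p14, minus strand, printed 5′ to 3′) are given with each match to CCAAT or TTTGAA on either strand in capitals; the opposite strand reads ATTGG and TTCAAA. The first is TOP2A at chr17:40417897-40418146 and the second the TOP2B window with matches at chr3:25664908-25665157.
TOP2A: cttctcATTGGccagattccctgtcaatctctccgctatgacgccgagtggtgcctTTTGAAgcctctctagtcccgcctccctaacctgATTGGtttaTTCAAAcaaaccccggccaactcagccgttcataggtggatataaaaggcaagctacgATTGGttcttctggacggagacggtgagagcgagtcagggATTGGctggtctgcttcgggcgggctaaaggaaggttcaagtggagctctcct
TOP2B: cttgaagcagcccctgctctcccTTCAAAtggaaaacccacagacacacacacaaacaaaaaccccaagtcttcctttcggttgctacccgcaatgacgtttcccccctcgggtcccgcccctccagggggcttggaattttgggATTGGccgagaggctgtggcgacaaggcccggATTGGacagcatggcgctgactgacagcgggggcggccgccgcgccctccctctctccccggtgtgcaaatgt

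The TOP2A window held 4 CCAAT matches, which begin 244, 160, 93 and 53 bases before the start, all on the opposite strand. It also held 2 TTTGAA matches, at 194 and 151 bases. The TOP2B window held 2 CCAAT matches (105 and 73 bases) and 1 TTTGAA match (227 bases), and a second RefSeq start of TOP2B had neither. The motifs were searched in windows of 300 bases, from 250 before to 50 after each start, and do not overlap each other. Of 35116 such windows, 34.6% held CCAAT, 15.2% TTTGAA and 5.9% both, and 0.991% held 4 or more CCAAT matches. TDP1 had 1 TTTGAA match, 30 bases before its start, and no CCAAT match; the windows of TOP1, TOP3A, TOP3B and TDP2 had neither. Counted by gene, with any of its windows, 39.7% of 27305 genes held CCAAT and 18.2% TTTGAA. Of 12 genes of the G2 and mitosis list with a window, 12 held CCAAT and 9 held TTTGAA. Of 8 chromosome partners of TOP2 with a window, 2 held CCAAT and 6 TTTGAA. A match is a description of letters, not a bound site.

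Genes that work with the members were described through lists, beside the median over all genes tested (0.03 with Mitoxantrone). Among 15 G2 and mitosis genes, 15 were lower than DMSO in Mitoxantrone with a median log2 fold change of -0.22, and 7 had an unadjusted p under 0.05 (limma), while 0 passed adjustment; of all genes, 2.94% were lower at that p and 7.9% met it in either direction. The 3 with the smallest p were KIF11 (-0.32, SE 0.10), the spindle motor, BUB1 (-0.32, SE 0.10), a checkpoint kinase, and CENPF (-0.38, SE 0.13), a kinetochore protein. The count was 9 with the replicate block, beside 6.46% of all genes lower, and 3 without Mitoxantrone replicate 1, 4 without Mitoxantrone replicate 2 and 4 without DMSO replicate 1. The summed FPKM of the list was 572 to 637 in Mitoxantrone, below the 705 to 774 of DMSO. It was 745 to 863 in Gilteritinib and 606 to 728 in Com, both overlapping DMSO. No share of all genes was counted for such a sum. Abundant genes weigh most in it, with a mean of 112 FPKM for CCNB1 beside 1.11 for PRC1. The share of cells in each phase was not measured in these libraries, and its part in the lower TOP2A was not tested.

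Of 9 chromosome partners of TOP2 (condensin, cohesin and CTCF), 9 were lower with Mitoxantrone, with a median of -0.21. An unadjusted p under 0.05 was reached by 4 (limma), among them SMC3 of cohesin (-0.34, SE 0.08) and SMC2 (-0.37, SE 0.10) and NCAPG (-0.37, SE 0.11) of condensin. Of all genes, 2.94% were lower at that p. The count was 7 with the replicate block, beside 6.46% of all genes. Their summed FPKM was 415 to 465 in Mitoxantrone and 503 to 530 in DMSO, without overlap. Of single genes 5.9% were lower without overlap, which is no matching share for a sum, and no such share was counted.

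Partners of the type IA enzymes had FPKM well above those of TOP3A and TOP3B themselves. For TOP3B that level is uncertain, as 90.7% of its exons lie under AC245452.1. All 5 partners had a mean FPKM of 12.3 to 23.8, and 5 of 5 were lower with Mitoxantrone (median -0.19). BLM, the helicase that works with TOP3A, was at 26.0 in DMSO and 20.9 in Mitoxantrone (log2 fold change -0.30, SE 0.08; unadjusted p under 0.05). TDRD3, the scaffold of TOP3B, was at 14.1 and 12.4 (-0.18, SE 0.06; unadjusted p under 0.05). RMI1, another part of the TOP3A complex, had -0.21 and FMR1, which binds TDRD3, -0.09, neither under an unadjusted 0.05. The count of 2 of 5, beside 2.94% of all genes lower, was 1 without Mitoxantrone replicate 2 and 3 with the replicate block (6.46% of all genes).

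Other lists held enzymes that process topoisomerase adducts. Of 8 genes that act on TOP2 adducts, 7 were lower (median -0.10) and 1 had an unadjusted p under 0.05: RBBP8, which starts end resection with MRE11 (-0.29, SE 0.10). A single gene of 8 is near the 7.9% of all genes at that p in either direction (2.94% lower), so the count is no result about the list. MRE11, the nuclease of that complex, had -0.14 and ZNF451, the SUMO ligase that recruits TDP2, -0.03. With the replicate block the count was 2, as it was without Mitoxantrone replicate 3. Of 10 genes that act on TOP1 adducts, 5 were lower and 5 higher (median 0.01), and 0 had an unadjusted p under 0.05 in limma (1 with the block, and 1 without Gilteritinib replicate 1, Com replicate 1 or DMSO replicate 1). Of 4 adduct proteases 1 did, FAM111A, at 24.3 FPKM in DMSO and 20.1 in Mitoxantrone (-0.26, SE 0.07); SPRTN, which degrades DNA-bound proteins at replication forks, had -0.10. With 4 genes, 1 says little beside the same share of all genes.

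Of 7 genes of mitochondrial DNA maintenance, the setting in which TOP1MT works, 4 were higher and 3 lower with Mitoxantrone (median 0.0033). TFAM, which packages mitochondrial DNA, had -0.23 (SE 0.08) and POLRMT, the mitochondrial RNA polymerase, -0.34 (SE 0.15), both under an unadjusted 0.05. POLRMT was close to that limit, and its Mitoxantrone libraries ranged from 13.6 to 23.6 FPKM. The count of 2 of 7, beside 2.94% of all genes lower, became 1 with the replicate block and 0 without Mitoxantrone replicate 2 or DMSO replicate 1.

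With Gilteritinib against DMSO, 13 of 15 G2 and mitosis genes were higher (median 0.11, beside -0.03 over all genes). In limma 0 had an unadjusted p under 0.05. With the block 2 did, both higher, beside 234 of all 18574 genes higher. The 1 list gene under an unadjusted 0.05 without the block was MGME1, a mitochondrial exonuclease (0.18, SE 0.06), beside 1.86% of all genes. In Com, 15 of 15 G2 and mitosis genes and 9 of 9 chromosome partners were lower. Their medians were -0.08 and -0.08, beside -0.01 over all genes. Of all list genes 0 had an unadjusted p under 0.05 in limma, and counts by sign were not tested. These comparisons share the DMSO libraries.

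The members were also compared by replicate number, and their counts were no higher than or near the shares of all genes. The counts are therefore no result about the members. With group in the model, TOP2B was higher in replicate 1 than in replicates 2 and 3 by 0.19 (SE 0.06; limma, adjusted p = 0.032) and TDP2 by 0.14 (SE 0.04; limma, adjusted p = 0.024), 2 of 6 members beside 38.3% of all genes and 26.3% higher. The same 2 members had an unadjusted p under 0.05, beside 48.4% of all genes. The median over all genes was 0.09, so relative to it the differences were smaller. After median-ratio scaling TOP2B had 0.08 and TDP2 0.04, neither passing, and TOP1MT passed instead as lower (-0.18; limma, adjusted p = 0.033), 1 of 6 beside 35.9%. Which members passed thus turned on the scaling. The count was 0 without Gilteritinib replicate 1, Gilteritinib replicate 2, DMSO replicate 1 or DMSO replicate 3, and 1 without Gilteritinib replicate 3 or any Com library or DMSO replicate 2.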

How the data were processed

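RNA-seq of 12 MV4-11 libraries was used. Per the labels and methods, total RNA was amplified with the Geo-seq protocol and made into libraries with a transposase kit, and no strand is stated. The submitters' processing notes name Bowtie (0.12.9), Cufflinks (2.1.1), HTSeq, DESeq2 and the mouse build mm10. The row identifiers are human Ensembl genes, 40169 of 43876 of them in GENCODE 29, so the build behind the values is not settled. The authors deposited FPKM per gene, already scaled for depth and length. The study's text names a liposomal mitoxantrone and the labels mitoxantrone.

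Values were tested as log2(FPKM + 1) with limma 3.58.1 (R 4.3.3; empirical Bayes with trend, two-sided) on 18574 genes that reached 1 FPKM in 3 or more libraries, with 1 mean per group over all 12 libraries and Benjamini-Hochberg adjustment over all genes tested. A fold change on this scale understates that of low genes. The replicate contrast added the replicate number. The TOP2A to TOP2B ratio was tested by exact permutation. Whole fragments were recovered at 1 length for 99.9% of tested genes (tolerance 0.1 fragment) and gave depth; voom was run on them. The procedures were tested on simulated data.

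Same-numbered libraries deviated together (18 pairs, r from 0.165 to 0.657 over 18574 genes), so the number was used as a block in an alternative. Other alternatives were a pseudocount of 0.1, no filter, an average FPKM of 5 or more, scaling by median ratios, only the groups compared, and each library left out. One marker of another cell type is not reported here, so the sum over the rest does not cover the whole marker list. The members and lists were chosen with earlier results of these data known. Fold changes are given for TOP2A and TOP2B against DMSO and in the interaction, and for members with an unadjusted p under 0.05; list genes are named by the same threshold against DMSO (3 per list, smallest p first) or for acting with a member, and the 5 genes most like TOP2A and TOP2B by r. Motifs were counted in RefSeq promoter windows (GRCh38.p14).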

Additional observations from a re-analysis of the deposited data

How the results depend on the processing

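Of the counts of members that passed, those for the drug comparisons were 0 with the other pseudocount, filters and scaling, with the replicate block, with only the groups compared and with every single library left out (0 to 0). After the data were seen, replicates 2 and 3 alone gave 2 with Mitoxantrone against DMSO, 1 with Com against Mitoxantrone and 1 with Gilteritinib against Mitoxantrone, and voom with the replicate block, on all 12 libraries, gave 1 in the last; the cause was not tested. The replicate block changed no other call of a member. Unadjusted counts with 1 library left out, or by voom without the block, have no share of all genes beside them. They show only how the main count moved. Between replicate 1 and the others the count of 2 became 1 with median-ratio scaling and 0 to 2 with 1 library left out; the cause was not tested. The log2 ratio of TOP2A to TOP2B ranged from -0.21 to -0.15 for Mitoxantrone, 0.15 to 0.18 for Gilteritinib and -0.11 to 0.039 for Com with 1 library left out, so the last changed sign. With 1 library left out, TOP2A ranged from -0.37 to -0.27 with Mitoxantrone and from -0.030 to 0.17 with Gilteritinib against DMSO; TOP2B ranged from -0.18 to 0.014 with Gilteritinib and from -0.10 to 0.042 in Com. Of 578 recomputed fold changes for 28 named results, 5 changed sign. A further 15 passed the adjusted threshold where the main fit did not, and 17 no longer passed it. Counting error was at most 2.31% for the 6 members tested, and reached 14.6% for TOP3B, and covers counting only. With 3 libraries per group, intervals of the members against DMSO span up to 0.49 on the log2 scale from lower to upper bound. An interval that holds 0 does not exclude the other differences inside it.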
